A study of Mus musculus with 12 samples.

Results

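The mouse Fc gamma receptors are encoded by Fcgr1, Fcgr3, Fcgr4 and Fcgr2b, and Fcer1g encodes the signaling chain that the activating receptors share. These 5 genes were taken by name from the 23997 genes listed in each of 12 RNA-seq libraries, and all 5 passed the filter on low values that 10581 genes passed. The libraries came from bone marrow-derived macrophages (BMDMs) of male C57BL/6 mice aged 8 to 10 weeks, grown with recombinant human M-CSF at 10 ng/ml for 7 d. WT or Pim1-/- cells were left untreated or received LPS at 100 ng/ml for 4 h, with 3 libraries in each of the 4 groups. The Pim1-/- mice were made by CRISPR/Cas9 editing, which removed exons I to V of Pim1, and no cell type-specific driver limits the deletion to macrophages. The labels do not say whether the 3 libraries of a group came from separate mice or cultures, so p-values measure only the spread between these libraries, which may be technical.

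Fc gamma receptors bind the constant region of IgG and let macrophages take up and respond to antibody-coated particles. FcγRI (Fcgr1), FcγRIII (Fcgr3) and FcγRIV (Fcgr4) are the activating receptors of the mouse, and they signal through the immunoreceptor tyrosine-based activation motif (ITAM) of the common γ chain encoded by Fcer1g. FcγRIIB (Fcgr2b) is the inhibitory receptor and carries its own immunoreceptor tyrosine-based inhibition motif (ITIM), so the relative amounts of activating and inhibitory receptors set the threshold at which immune complexes activate a macrophage.

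Values are FPKM, fragments mapped to a gene scaled by transcript length and library depth, and being per length they allow levels of different genes to be set side by side. The FPKM of all genes summed to between 452511 and 489710 in untreated libraries and to between 713307 and 849323 after LPS. The files hold no read counts. From the steps between low values, 1 FPKM was estimated to stand for 37.6 to 45.7 fragments per kilobase in untreated libraries and for 20.85 to 32 after LPS, which puts at least 342 fragments behind every value of the 5 genes. Pearson's r between replicates across genes was 0.9977 to 0.9989, and genes are not independent replicates. Pim1, the deleted gene, was read at 25.0, 21.5 and 22.3 FPKM in untreated WT, at 8.70, 8.00 and 9.51 in untreated Pim1-/-, at 665, 630.2 and 641 in LPS-treated WT and at 216, 205 and 236 in LPS-treated Pim1-/- libraries. Pim1 was thus lower in all Pim1-/- libraries but not absent, at 38.1% of the WT mean without treatment and 33.9% after LPS, and gene-level values do not show which exons the remaining fragments cover.

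The stretches that carry the signaling motifs are shown first because they separate the activating from the inhibitory side. They were read from the GENCODE M21 transcripts of the mouse (GRCm38, minus strand of chromosome 1), and capitals mark the codons of the motif tyrosines. The Fcer1g stretch covers codons 61 to 83 in exons 4 and 5 of 5 (chr1:171230067-171230084 and chr1:171229877-171229927). The Fcgr2b stretch covers codons 309 to 330 of the longest coding form in exons 7 and 8 of 8 (chr1:170961196-170961207 and chr1:170961047-170961100).
Fcer1g ITAM: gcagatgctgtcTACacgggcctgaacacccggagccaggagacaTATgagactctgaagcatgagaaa
Fcgr2b ITIM: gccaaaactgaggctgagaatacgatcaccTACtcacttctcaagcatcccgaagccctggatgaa
The Fcer1g stretch holds 2 motif tyrosines at codons 65 and 76 and the Fcgr2b stretch holds 1 at codon 319. A search of the coding sequences found the ITAM pattern in 1 of the 2 annotated coding forms of Fcer1g and in none of the 4 receptors. The looser ITIM pattern, a short run of residues around 1 tyrosine, was found in Fcgr2b at the site shown, 3 times in Fcgr1, once in Fcgr4 and once in Fcer1g, but not in Fcgr3. Such a match is a description of the letters and does not show that the site signals.

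Fcgr2b, Fcgr4, Fcgr3 and Fcer1g lie within 275749 bases of chromosome 1 (chr1:170958617-171234365), and Fcgr1 lies on chromosome 3. Fcgr3 and Fcgr2b are close relatives, and their coding sequences share an identical run of 129 bases, which is shown because reads inside it fit either gene. It lies in exons 3 and 4 of both genes, at chr1:171057691-171057792 and chr1:171054167-171054193 in Fcgr3 and at chr1:170967980-170968081 and chr1:170966674-170966700 in Fcgr2b.
Fcgr3 and Fcgr2b: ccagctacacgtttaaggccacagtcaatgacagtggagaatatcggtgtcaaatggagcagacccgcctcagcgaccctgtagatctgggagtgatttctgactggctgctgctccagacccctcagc
Of the 1627 distinct 50-base stretches in Fcgr3 transcripts, 166 (10.2%) also occur in Fcgr2b. Of the 3708 in Fcgr2b transcripts, 249 (6.72%) also occur in other genes, which besides Fcgr3 include many unrelated ones. How the authors' counting divided such reads is not given in the sources used here, so part of the level of Fcgr3 and of Fcgr2b is uncertain. An annotated antisense gene, Gm38204, overlaps Fcgr2b on the opposite strand. The library kit is stranded, but the strand setting of the counting is not given.

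Untreated Pim1-/- BMDMs held less Fcgr1, Fcgr4 and Fcgr2b than WT, and after LPS all 4 receptors were lower in Pim1-/- cells by 2.59-fold to 4.46-fold in the deposited values. Their genotype log2 differences after LPS, -2.14 to -1.37 as deposited, were -1.76 to -1.12 after quantile normalization. With equal FPKM sums they were -1.93 to -1.17. All 4 stayed called. LPS raised Fcgr1, Fcgr4 and Fcgr2b in both genotypes, 10.0-fold to 11.7-fold in WT and 6.99-fold to 11.0-fold in Pim1-/- cells in the deposited values. The size of this rise depended on the scaling of the libraries: their log2 differences in WT, 3.31 to 3.49 as deposited, were 2.19 to 2.66 after quantile normalization, which gives every library the same distribution of values, and 2.51 to 2.69 when the FPKM sums of all libraries were set equal. In Pim1-/- cells the log2 differences of 2.77 to 3.31 became 2.03 to 2.99 and 2.12 to 2.69, and all 3 genes were called in both genotypes under both scalings. In the deposited values Fcgr3 did not pass the 2-fold limit with LPS in either genotype. As deposited, Fcer1g did not differ between genotypes beyond the spread between untreated libraries, and after LPS it was lower in Pim1-/- cells by less than 2-fold. In bulk RNA, fewer cells of a type and less RNA per cell cannot be told apart, and several macrophage markers given further on were lower in Pim1-/- cells too.

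Calls were made with limma, fitted on log2(FPKM + 1) over the 10581 genes, and needed a difference above 2-fold, p under 0.05 and a false discovery rate (FDR, by Benjamini and Hochberg) under 0.1. Untreated, 3 of the 5 genes were called lower in Pim1-/- cells and 0 higher, and of all genes tested 3.37% were called lower and 4.4% higher. After LPS, 4 of the 5 were called lower and 0 higher, against 5.15% of all genes called lower and 3.51% higher. With LPS in WT cells 4 of the 5 were called higher, against 20.1% of all genes higher and 14.7% lower. With LPS in Pim1-/- cells 3 of the 5 were called higher, against 14.6% of all genes higher and 10.4% lower. Without the fold limit the FDR passes for 78.8% of all genes between genotypes untreated, 80.9% after LPS, 91.2% with LPS in WT and 87.2% with LPS in Pim1-/- cells, so passing the FDR alone separates few genes from the rest. The groups' values did not overlap for 4 of the 5 genes between genotypes untreated, where this held for 78.4% of all genes, and for all 5 after LPS, where it held for 77.5%. For all 5 genes LPS-treated and untreated libraries did not overlap in either genotype, as for 90.4% of all genes in WT and 83.8% in Pim1-/- cells.

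**Figure D1:**
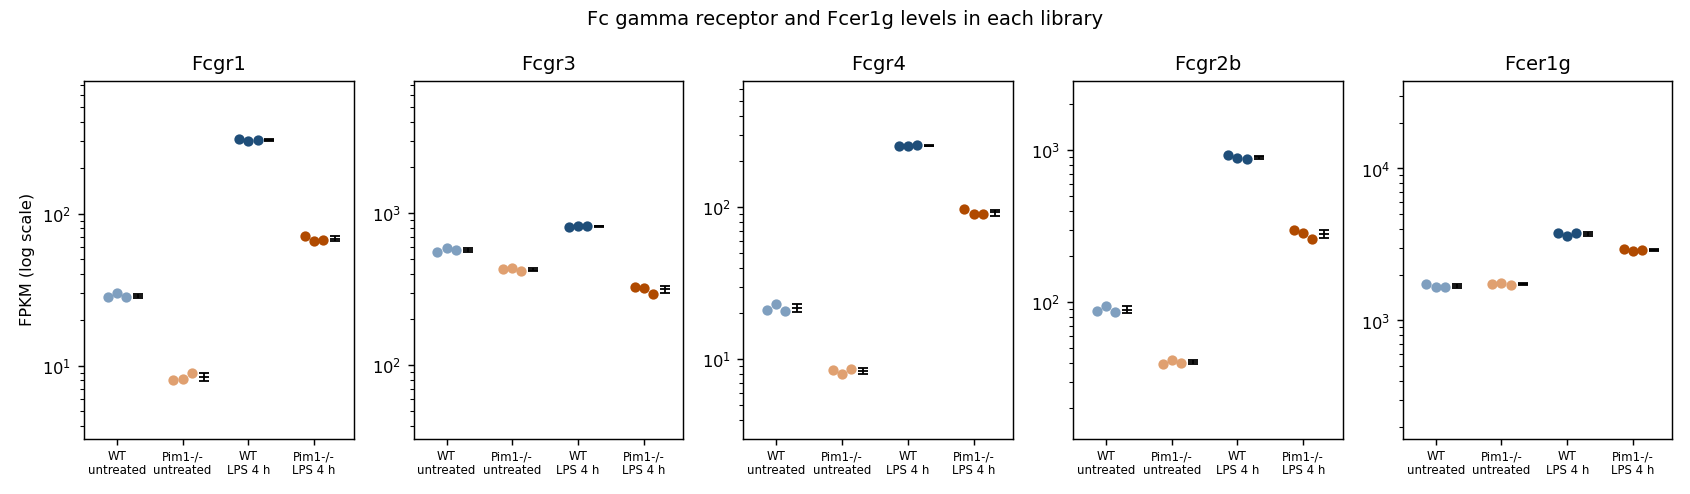
FPKM on a log scale (the same span of folds in each panel) of the 4 receptors and Fcer1g in each library; points are the 3 libraries of a group, and the black bar with caps is the mean ± SD. After LPS every Pim1-/- library lies below every WT library for all 5 genes, while without treatment only Fcer1g overlaps between genotypes.

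Fcgr1 encodes the high-affinity IgG receptor, which binds monomeric IgG (GRCm38, chr3:96282909-96293969, minus strand). It was read at 28.4, 29.9 and 28.4 FPKM in untreated WT libraries and at 8.10, 8.22 and 8.96 in untreated Pim1-/- libraries. After LPS it was read at 310.0, 301 and 306 FPKM in WT and at 71.5, 66.6 and 67.5 in Pim1-/- libraries. The 4 groups did not overlap, and the level after LPS in Pim1-/- cells was above untreated WT but far below LPS-treated WT. The genotype difference was 3.43-fold without treatment (log2 difference -1.67 ± 0.04 (SE), limma FDR = 4.33e-14) and 4.46-fold after LPS (log2 difference -2.14 ± 0.04, limma FDR = 6.18e-15). After quantile normalization the genotype log2 difference of Fcgr1 was -1.88 without treatment and -1.76 after LPS, so it was then not larger after LPS. LPS raised Fcgr1 10.6-fold in WT (log2 3.36) and 8.13-fold in Pim1-/- cells (log2 2.88).

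Fcgr3 encodes a low-affinity activating receptor (chr1:171051174-171064935, minus strand). Its levels were 556, 592 and 573 FPKM in untreated WT and 428, 433 and 415 in untreated Pim1-/- libraries. After LPS they were 815, 823 and 819 FPKM in WT and 329, 324 and 296 in Pim1-/- libraries. Of the 4 groups the highest was LPS-treated WT and the lowest LPS-treated Pim1-/-, with no overlap between any of them. The genotype difference was 1.35-fold without treatment, which was not called (log2 difference -0.43 ± 0.04 (SE), limma FDR = 3.58e-07), and 2.59-fold after LPS, which was called (log2 difference -1.37 ± 0.04, limma FDR = 4.8e-13). Relative to untreated cells, the LPS level of Fcgr3 was 1.43-fold higher in WT (log2 0.51, not called) and 1.35-fold lower in Pim1-/- cells (log2 -0.43, not called). This WT direction depended on how libraries were scaled, because the log2 value was -0.61 after quantile normalization and -0.30 when FPKM sums were set equal, and in Pim1-/- cells the decrease was then called, at -1.27 and -1.09. Setting FPKM sums equal also moved the median of all genes by LPS to -0.67 in WT and -0.58 in Pim1-/- cells, and quantile normalization moved it to -0.17 and -0.18, from 0.00 and -0.01 in the deposited values.

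Fcgr4 encodes an activating receptor of intermediate affinity for some IgG subclasses (chr1:171018920-171029761, plus strand). It was read at 21.2, 23.2 and 20.8 FPKM in untreated WT and at 8.53, 7.96 and 8.65 in untreated Pim1-/- libraries. After LPS the libraries held 253, 253 and 255 FPKM in WT and 97.2, 90.1 and 89.7 in Pim1-/- cells. All 4 groups were apart, in the same order as for Fcgr1. Fcgr4 was 2.59-fold lower in Pim1-/- cells without treatment (log2 difference -1.27 ± 0.05 (SE), limma FDR = 2.77e-12) and 2.75-fold lower after LPS (log2 difference -1.45 ± 0.05, limma FDR = 7.18e-13). After quantile normalization these log2 differences were -1.45 and -1.12. Fcgr4 rose 11.7-fold with LPS in WT and 11.0-fold in Pim1-/- cells.

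Fcgr2b encodes the only inhibitory member of the family (chr1:170958617-170976547, minus strand). Its levels were 87.4, 94.8 and 85.6 FPKM in untreated WT and 39.3, 41.7 and 39.8 in untreated Pim1-/- libraries. After LPS they were 926, 887 and 876 FPKM in WT and 297, 285 and 262 in Pim1-/- libraries. The groups did not overlap. Fcgr2b was 2.22-fold lower in Pim1-/- cells without treatment (log2 difference -1.13 ± 0.05 (SE), limma FDR = 2.31e-11) and 3.18-fold lower after LPS (log2 difference -1.67 ± 0.05, limma FDR = 2.85e-13). LPS raised it 10.0-fold in WT and 6.99-fold in Pim1-/- cells. The longest and shortest full coding forms of Fcgr2b in the annotation differ by an insert of 141 coding bases (47 codons), and both keep the ITIM shown above. Gene-level FPKM do not tell these forms apart.

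Fcer1g encodes the common γ chain (chr1:171229572-171234365, minus strand) and was the most abundant of the 5 genes in every group. It was read at 1744, 1662 and 1653 FPKM in untreated WT and at 1734, 1766 and 1721 in untreated Pim1-/- libraries, and these ranges overlap. After LPS it was read at 3787, 3585 and 3789 FPKM in WT and at 2943, 2868 and 2887 in Pim1-/- libraries, and these do not overlap. The untreated genotype difference was 1.03-fold (log2 difference 0.05 ± 0.04 (SE), limma FDR = 0.328) and that after LPS was 1.28-fold (log2 difference -0.36 ± 0.04, limma FDR = 1.02e-06), neither of them called. With equal FPKM sums the untreated log2 difference was 0.10 and passed the FDR (limma FDR = 0.0151), again without a call. The log2 difference after LPS was -0.18 after quantile normalization and -0.15 with equal FPKM sums. Fcer1g rose 2.21-fold with LPS in WT (log2 1.14), which was called in the deposited values but not after quantile normalization (log2 0.20) or with equal FPKM sums (log2 0.33). In Pim1-/- cells the LPS level was 1.67-fold higher (log2 0.74, not called), and the sign of this value turned under quantile normalization (log2 -0.03).

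**Figure D2:**
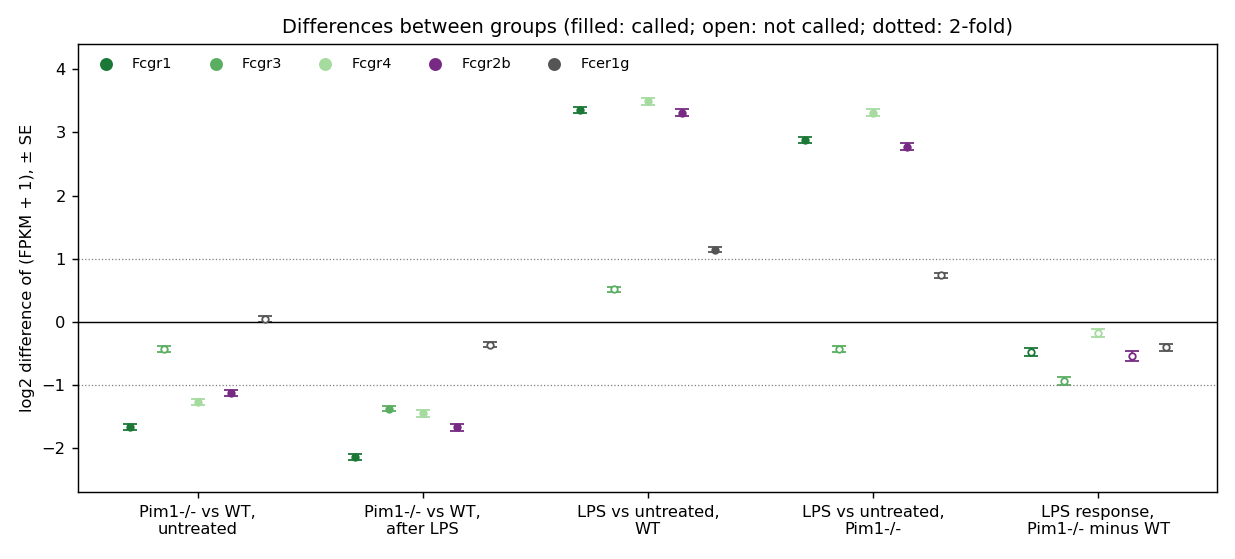
Log2 differences of (FPKM + 1) with SE bars for the 4 receptors and Fcer1g in the 4 comparisons and in the difference of the LPS responses; filled points were called and open points were not. The points for Fcgr1, Fcgr4 and Fcgr2b lie beyond 2-fold in each of the 4 comparisons, Fcgr3 does so only between genotypes after LPS, and Fcer1g only with LPS in WT.

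The response to LPS itself was compared between genotypes with the interaction term of the fit. It was smaller in Pim1-/- cells for all 5 genes in the deposited values, but none was called, since no difference passed 2-fold; 6.67% of all genes were called in this comparison and 68.5% passed the FDR alone. On the log2 scale the difference in response was -0.94 ± 0.06 (SE) for Fcgr3 (limma FDR = 6.03e-09), -0.54 ± 0.07 for Fcgr2b (limma FDR = 1.15e-05), -0.48 ± 0.06 for Fcgr1 (limma FDR = 1.03e-05), -0.40 ± 0.06 for Fcer1g (limma FDR = 2.21e-05) and -0.18 ± 0.07 for Fcgr4 (limma FDR = 0.0371). Quantile normalization turned the sign for Fcgr1 (0.12, limma FDR = 0.113) and Fcgr4 (0.33, limma FDR = 0.000768). The Fcgr4 response then passed the FDR as the larger one in Pim1-/- cells. The same scaling left -0.66 for Fcgr3, -0.15 for Fcgr2b and -0.23 for Fcer1g. The value for Fcgr4 no longer passed the FDR with a pseudocount of 0.1 in place of 1 (-0.10, limma FDR = 0.254) or with equal FPKM sums (-0.0015, limma FDR = 0.985), and that for Fcgr1 was -0.39 with the smaller pseudocount and -0.30 with equal FPKM sums.

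The order of the 5 levels differed between the groups. In untreated WT cells it was Fcer1g, Fcgr3, Fcgr2b, Fcgr1 and Fcgr4 from high to low, with no neighbours overlapping. In untreated Pim1-/- cells the order was the same, but Fcgr1 (8.43 ± 0.46 FPKM) and Fcgr4 (8.38 ± 0.37 FPKM) overlapped. In LPS-treated WT cells Fcgr2b (896 ± 26.6 FPKM, SD, n = 3) stood above Fcgr3 (819 ± 4.21). In LPS-treated Pim1-/- cells the ranges of Fcgr3 (316 ± 17.9 FPKM) and Fcgr2b (282 ± 17.6) overlapped, although within each library Fcgr3 was 1.11 to 1.14 times Fcgr2b, and Fcgr4 stood above Fcgr1. The ratio of Fcgr1 to Fcgr4 was 1.33 ± 0.04 in untreated WT, 1.01 ± 0.05 in untreated Pim1-/-, 1.20 ± 0.02 in LPS-treated WT and 0.743 ± 0.009 in LPS-treated Pim1-/- cells (SD, n = 3).

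Activating and inhibitory receptors were set against each other within each library as the summed FPKM of Fcgr1, Fcgr3 and Fcgr4 over that of Fcgr2b. This ratio is free of any factor that scales a whole library, and it is given as a description with no test. It was 6.93, 6.81 and 7.27 in untreated WT and 11.3, 10.8 and 10.9 in untreated Pim1-/- libraries. After LPS it was 1.49, 1.55 and 1.58 in WT and 1.68, 1.68 and 1.73 in Pim1-/- libraries. LPS thus went with a much lower ratio in both genotypes, and the Pim1-/- libraries lay above the WT libraries under both conditions, by a wide gap without treatment and a narrow one after LPS. Of the 3 activating receptors only Fcgr3 fell against Fcgr2b with LPS, from 6.43 to 0.914 in WT and from 10.6 to 1.12 in Pim1-/- cells (means). Fcgr1 over Fcgr2b rose from 0.324 to 0.341 in WT and from 0.210 to 0.244 in Pim1-/- cells. Fcgr4 over Fcgr2b rose from 0.243 to 0.283 and from 0.208 to 0.328.

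Most of the activating sum in untreated cells was Fcgr3. It made up 80.4% ± 0.49 (SD, n = 3) of the summed FPKM of the 4 receptors in untreated WT and 88.2% ± 0.29 in untreated Pim1-/- cells, and 36.0% ± 0.56 and 41.7% ± 0.54 after LPS. The share of Fcgr2b was 12.5% ± 0.37 in untreated WT and 8.34% ± 0.19 in untreated Pim1-/- cells, and it was 39.4% ± 0.72 and 37.1% ± 0.37 after LPS. Without Fcgr3, the sum of Fcgr1 and Fcgr4 over Fcgr2b was 0.567 ± 0.008 in untreated WT, 0.418 ± 0.027 in untreated Pim1-/-, 0.624 ± 0.016 in LPS-treated WT and 0.572 ± 0.025 in LPS-treated Pim1-/- cells. The inhibitory receptor then exceeded the activating pair in all 4 groups, and the Pim1-/- mean lay below the WT mean. The mean after LPS then lay above the untreated mean in both genotypes, opposite to the ratio with Fcgr3. Taken over all 4 receptors, the summed level was 714 ± 24.1 FPKM in untreated WT, 482 ± 9.07 in untreated Pim1-/-, 2275 ± 26.0 in LPS-treated WT and 759 ± 40.1 in LPS-treated Pim1-/- cells. The chain that the activating receptors need, Fcer1g, was present at 2.70 ± 0.16 times their summed FPKM in untreated WT, 3.94 ± 0.04 in untreated Pim1-/-, 2.70 ± 0.08 in LPS-treated WT and 6.09 ± 0.25 in LPS-treated Pim1-/- cells.

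**Figure D3:**
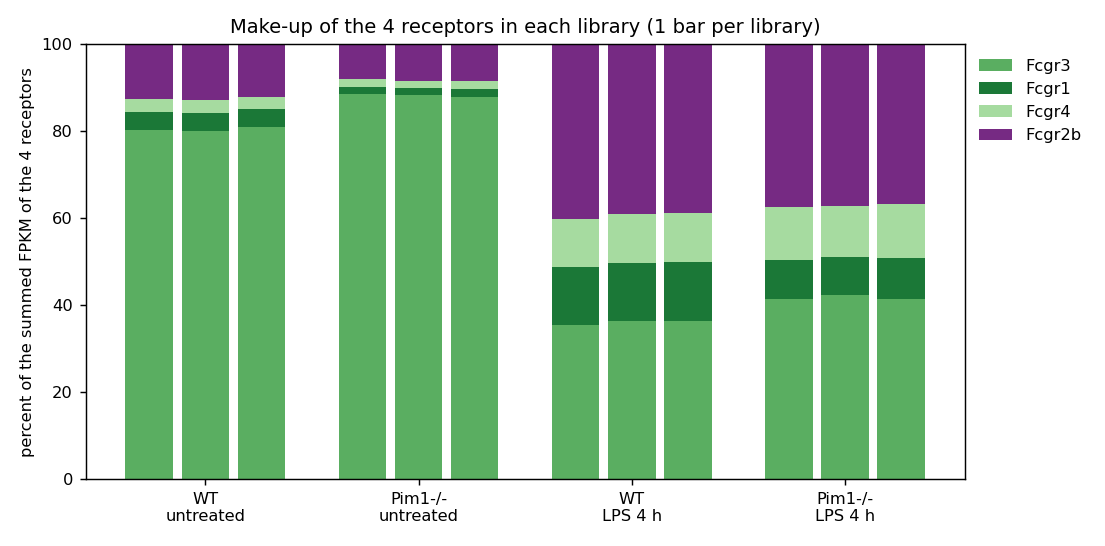
Share of each receptor in the summed FPKM of Fcgr3, Fcgr1, Fcgr4 and Fcgr2b, with 1 bar per library and 3 libraries per group. Fcgr3 holds 80.4% and 88.2% of the sum without treatment (WT and Pim1-/-), and Fcgr2b holds 39.4% and 37.1% after LPS.

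The RefSeq promoter table (GRCm38.p6) matched all 5 genes. The 250 bases upstream of the first listed start of each gene were searched on both strands. The motifs were the core of the PU.1 site (GAGGAA), the GAS element bound by STAT proteins (TTCNNNGAA) and the core of the interferon-stimulated response element, ISRE (GAAANNGAAA). The windows of Fcgr1 and Fcgr4 are printed because these genes had the largest LPS responses in Pim1-/- cells, and each runs from 130 to 11 bases upstream of the start, with the matches in capitals. The Fcgr1 window is chr3:96293980-96294099 on the minus strand and the Fcgr4 window is chr1:171018796-171018915 on the plus strand, and neither overlaps an annotated exon.
Fcgr1 promoter: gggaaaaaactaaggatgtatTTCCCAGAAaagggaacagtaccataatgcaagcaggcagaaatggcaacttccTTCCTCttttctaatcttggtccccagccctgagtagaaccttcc
Fcgr4 promoter: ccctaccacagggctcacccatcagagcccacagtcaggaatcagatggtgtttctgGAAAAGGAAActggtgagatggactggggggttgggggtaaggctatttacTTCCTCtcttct
The 6 capitals nearer to the start in both windows are the PU.1 core on the opposite strand, 50 bases upstream of the start in Fcgr1 and 17 in Fcgr4. The other match is a GAS element in Fcgr1 and an ISRE core in Fcgr4, and no matches overlapped. The first of 2 listed Fcgr3 promoters also held the PU.1 core, next to its start, and the second was not searched. That start (chr1:171059403) lies inside the annotated Fcgr3 gene. The Fcgr2b and Fcer1g sequences held none of these letters. For both, the bases from 130 to 11 upstream overlap an annotated exon, and the Fcgr2b start (chr1:170976071) lies inside the annotated gene. The lack of a match was therefore not read as a promoter difference, and whether the promoters differ was not tested. Of all 32851 promoters, 23.3% held the PU.1 core, 7.02% the GAS element and 2.98% the ISRE core. A match is not evidence of binding, and a window without one says nothing about the factor. Spi1, which encodes PU.1, was at 188 ± 0.87 FPKM in untreated WT, 124 ± 11.3 in untreated Pim1-/-, 801 ± 27.1 in LPS-treated WT and 365 ± 18.7 in LPS-treated Pim1-/- cells. Its genotype call after LPS (log2 -1.13) was lost after quantile normalization (-0.88) and with equal FPKM sums (-0.93). Its LPS rise lost the call after quantile normalization in WT (2.09 to 0.91), and under both scalings in Pim1-/- cells (1.56 to 0.70 and 0.90). A link between Spi1 and the receptors was not tested.

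The genes with the most similar pattern were found by Pearson's r of log2(FPKM + 1) over the 12 libraries, among the 5409 genes that averaged 10 FPKM or more. These r values describe 12 libraries that fall into 4 groups, so they mostly repeat the group means. For Fcgr1 they were H2-D1 (r = 0.9985), Nckap1l (0.9981) and Stard5 (0.9976), and for Fcgr4 Mpp1 (0.9991), H2-K1 (0.9988) and Tmcc3 (0.9986). H2-D1 and H2-K1 encode classical MHC class I molecules. For Fcgr2b they were Cmtm6, Ifngr2 and Ankle2, each at 0.9986, where Ifngr2 encodes a chain of the interferon-γ receptor. For Fcer1g they were Tnip3 (0.9983), Rmdn3 (0.9982) and Lhx2 (0.9981). For Fcgr3 the most similar genes reached less, with Rap1gds1 at 0.9835, Pmvk at 0.9833 and Sh3gl1 at 0.9829. Among the 5 genes themselves, r was 0.9967 between Fcgr4 and Fcgr2b, 0.9926 between Fcgr1 and Fcgr2b and 0.9851 between Fcgr1 and Fcgr4, whereas Fcgr3 reached 0.28 to 0.52 with the others.

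Of 13 other Fc receptor genes, 5 passed the filter on low values. Fcgrt, the neonatal Fc receptor that recycles IgG, was at 82.2 ± 1.31 FPKM in untreated WT and 15.4 ± 0.28 in untreated Pim1-/-, and at 52.3 ± 1.78 and 10.51 ± 0.46 after LPS, and was called lower in Pim1-/- cells under both conditions (log2 differences -2.34 and -2.21). Fcrls was called lower likewise, from 103 ± 5.56 to 27.4 ± 2.02 FPKM without treatment. Trim21, the cytosolic Fc receptor, rose with LPS as Fcgr1, Fcgr4 and Fcgr2b did, from 11.1 ± 0.51 to 238 ± 4.43 FPKM in WT and from 10.0 ± 0.30 to 278 ± 16.8 in Pim1-/- cells. Unlike for those genes, the genotypes differed by less than 2-fold. Of the 5 tested, 2 were called lower in Pim1-/- cells and 0 higher under each condition. Fcer1a and Ms4a2, the subunits that make up the IgE receptor with Fcer1g in mast cells, were listed at or near 0.

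Downstream of the receptors, Src-family kinases and Syk phosphorylate and read the ITAM. Of 9 such kinases 8 were tested, and LPS raised 6 and lowered 1 in WT and raised 4 and lowered 1 in Pim1-/- cells, with list medians of 1.75 and 1.00 on the log2 scale beside medians of all genes near 0. The number raised was 5 in WT and 3 in Pim1-/- cells after quantile normalization and 4 and 3 with equal FPKM sums. Of all 10581 genes, quantile normalization left 1644 called higher and 1807 lower in WT, and 1305 and 1352 in Pim1-/- cells. Equal FPKM sums left 1190 higher and 3680 lower in WT, and 967 and 2783 in Pim1-/- cells. Lyn lost its call in Pim1-/- cells in both scalings, and Syk lost its call in WT after quantile normalization. Lyn rose from 58.6 ± 1.59 to 263 ± 6.05 FPKM in WT and from 47.3 ± 0.51 to 135 ± 1.09 in Pim1-/- cells. Syk rose from 84.8 ± 1.39 to 304 ± 3.92 FPKM and from 45.7 ± 2.72 to 187 ± 13.5, whereas Tec fell in both genotypes, from 30.1 ± 0.21 to 2.70 ± 0.28 FPKM in WT. Between genotypes, 0 of the 8 kinases were called without treatment. Fyn was among those called lower after LPS (log2 difference -1.07), and was not called after quantile normalization or with equal FPKM sums. Fyn was the only kinase of the list whose LPS response was called different, since it rose from 11.0 ± 0.37 to 37.0 ± 0.46 FPKM in WT and was at 15.8 ± 0.32 and 17.1 ± 1.60 in Pim1-/- cells.

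Of 21 adaptors and effector enzymes 20 were tested, and 1 was called lower in Pim1-/- cells without treatment and 5 after LPS, with 0 higher. The 5 became 2 after quantile normalization and 3 with equal FPKM sums. Over all 10581 genes, the 545 called lower after LPS became 364 and 331. Called under all of these scalings were Pik3cd, a catalytic subunit of phosphoinositide 3-kinase (88.2 ± 1.30 FPKM in WT, 24.7 ± 2.33 in Pim1-/-), and its adaptor Pik3ap1 (434 ± 2.27 and 153 ± 8.63). Vav1, a guanine nucleotide exchange factor (50.7 ± 0.35 and 20.6 ± 1.56 FPKM), lost its call after quantile normalization. LPS raised 6 and lowered 4 of the list in WT, which became 4 and 5 after quantile normalization and 2 and 6 with equal FPKM sums. It raised 3 and lowered 2 in Pim1-/- cells, which became 2 and 2 after quantile normalization and 2 and 6 with equal FPKM sums. The counts over all genes, given with the kinases, also moved towards lower calls with equal FPKM sums. The adaptor Lcp2 rose from 20.1 ± 0.47 to 259 ± 6.51 FPKM in WT, and Lat2 fell from 194 ± 6.55 to 50.7 ± 1.64.

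On the inhibitory side, all 12 listed phosphatases and adaptors were tested, with 0 called between genotypes without treatment and 1 called lower in Pim1-/- cells after LPS, the ubiquitin ligase gene Cblb (7.95 ± 0.17 and 3.47 ± 0.23 FPKM), whose call was lost after quantile normalization and with equal FPKM sums. LPS lowered 4 and raised 1 of them in WT, which became 6 and 0 after quantile normalization and 8 and 0 with equal FPKM sums. In Pim1-/- cells it lowered 5 and raised 0. Of all 10581 genes, 1556 were called lower with LPS in WT as deposited, 1807 after quantile normalization and 3680 with equal FPKM sums. Inpp5d, which encodes SHIP-1, the phosphatase that FcγRIIB recruits through its ITIM, fell with LPS from 58.4 ± 0.81 to 2.001 ± 0.19 FPKM in WT and from 34.9 ± 2.31 to 2.21 ± 0.15 in Pim1-/- cells, while Fcgr2b itself rose in both. Ptpn11, which encodes the phosphatase SHP-2, was the gene called higher in WT, from 13.4 ± 0.15 to 31.8 ± 0.60 FPKM, in the deposited scaling but not in those 2.

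**Figure D4:**
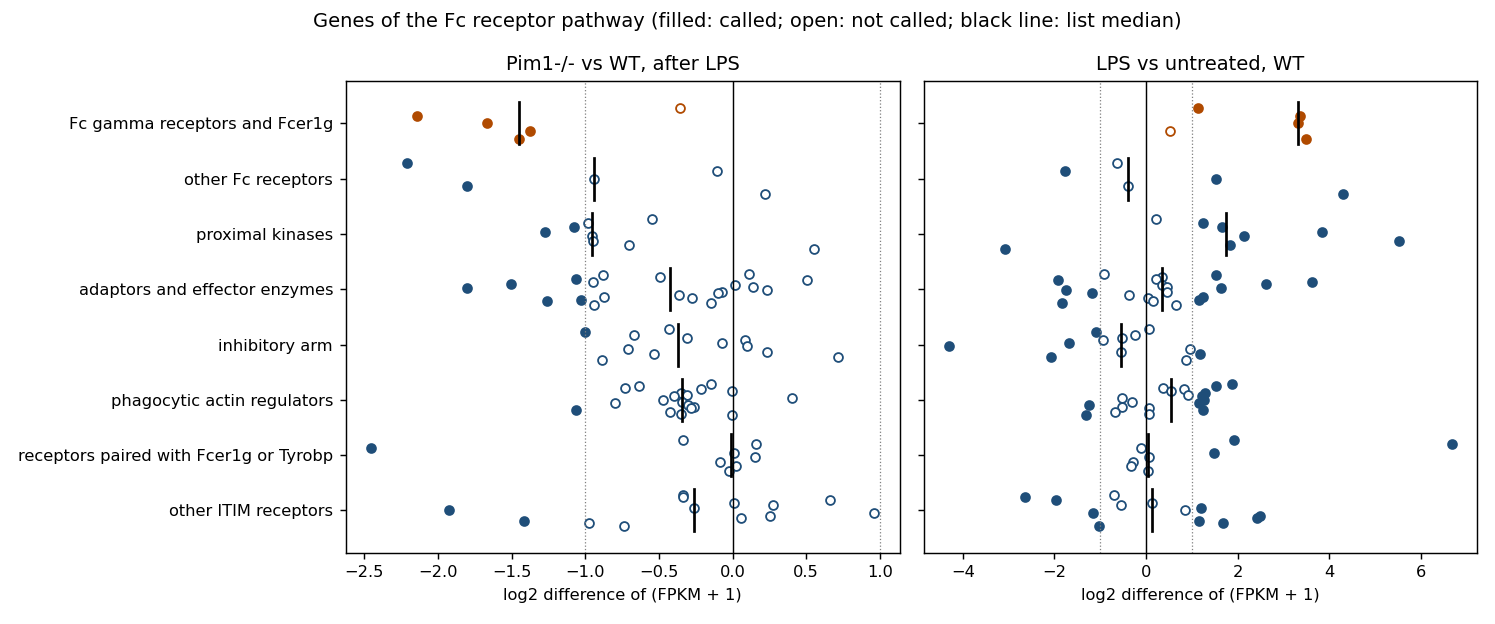
Log2 differences of (FPKM + 1) for the tested genes of each list, between genotypes after LPS (left) and with LPS in WT (right); filled points were called, open points were not, and black lines are list medians. The 4 receptors lie between -1.37 and -2.14 on the left, and Fcgr1, Fcgr4 and Fcgr2b lie between 3.31 and 3.49 on the right.

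Of 19 actin regulators of phagocytosis, 0 were called between genotypes without treatment, and Rac2 alone was called lower after LPS (224 ± 4.60 FPKM in WT and 107 ± 6.45 in Pim1-/-), a call lost after quantile normalization and with equal FPKM sums. With LPS in WT, 7 were called higher and 2 lower in the deposited values. These became 0 higher and 6 lower after quantile normalization and 1 higher and 6 lower with equal FPKM sums. The list median turned from 0.55 to -0.47 and -0.26. Over all 10581 genes the median was -0.17 and -0.67 in these scalings, with 1807 and 3680 genes called lower. The list median thus lay below that of all genes after quantile normalization and above it with equal FPKM sums. Of 8 tested receptors and chains that pair with Fcer1g or Tyrobp, 1 was called lower in Pim1-/- cells under each condition, Clec4n, which encodes Dectin-2 and signals through the same γ chain (46.6 ± 3.03 and 9.30 ± 0.46 FPKM without treatment). Clec4e, which encodes Mincle and also uses that chain, rose with LPS from 15.7 ± 2.28 to 1706 ± 39.2 FPKM in WT and from 27.5 ± 1.63 to 1910 ± 155 in Pim1-/- cells and was not called between genotypes after LPS. Of 13 other tested receptors with ITIMs, 2 were called lower in Pim1-/- cells under each condition and 0 higher, Pirb (152 ± 4.61 and 68.3 ± 2.08 FPKM without treatment) and Clec4a2 (21.2 ± 1.68 and 7.93 ± 0.50). Lilrb4 rose with LPS from 350 ± 8.07 to 1952 ± 48.8 FPKM in WT, and Cd300a fell from 93.1 ± 0.88 to 14.02 ± 0.52.

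All 10 macrophage markers were above 1 FPKM in every group, and 4 of the 10 were called lower in Pim1-/- cells under each condition, with list medians of -0.89 and -0.94 on the log2 scale. After LPS the 4 became 2 after quantile normalization and 3 with equal FPKM sums. Their summed FPKM was 28140 to 30190 in untreated WT and 14540 to 15440 in untreated Pim1-/- libraries, and 31420 to 31890 and 16270 to 18120 after LPS, of which Lyz2 made up most (26302 and 13297 FPKM without treatment). Csf1r, the M-CSF receptor, was at 764 ± 23.4 FPKM in untreated WT and 254 ± 21.3 in untreated Pim1-/- cells, and Aif1 at 33.3 ± 2.43 and 5.78 ± 0.61. The macrophage markers therefore moved in the same direction as the receptors. For Fcer1g the untreated genotype difference was 0.05 on the log2 scale as deposited (limma FDR = 0.328) and 0.10 with equal FPKM sums (limma FDR = 0.0151). The part of the markers in the receptor differences was not tested.

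Most markers of other Fc receptor-bearing cells were low, with Hdc the only one to reach a group mean of 10 FPKM. The highest group mean was 1.47 FPKM among 5 B cell markers and 0.443 among 7 NK and T cell markers, with Pax5, Ncr1, Gzma, Prf1 and Cd3e at 0 in all 12 libraries. It was 3.85 FPKM among 7 neutrophil markers and 4.97 among 8 dendritic cell markers. Among 7 mast cell and basophil markers Hdc, the histidine decarboxylase gene, reached 49.7 ± 0.87 FPKM in LPS-treated WT and 31.2 ± 2.21 in LPS-treated Pim1-/- cells, while the mast cell protease genes Tpsb2 and Cma1 were at 0 in all 12 libraries.

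**Figure D5:**
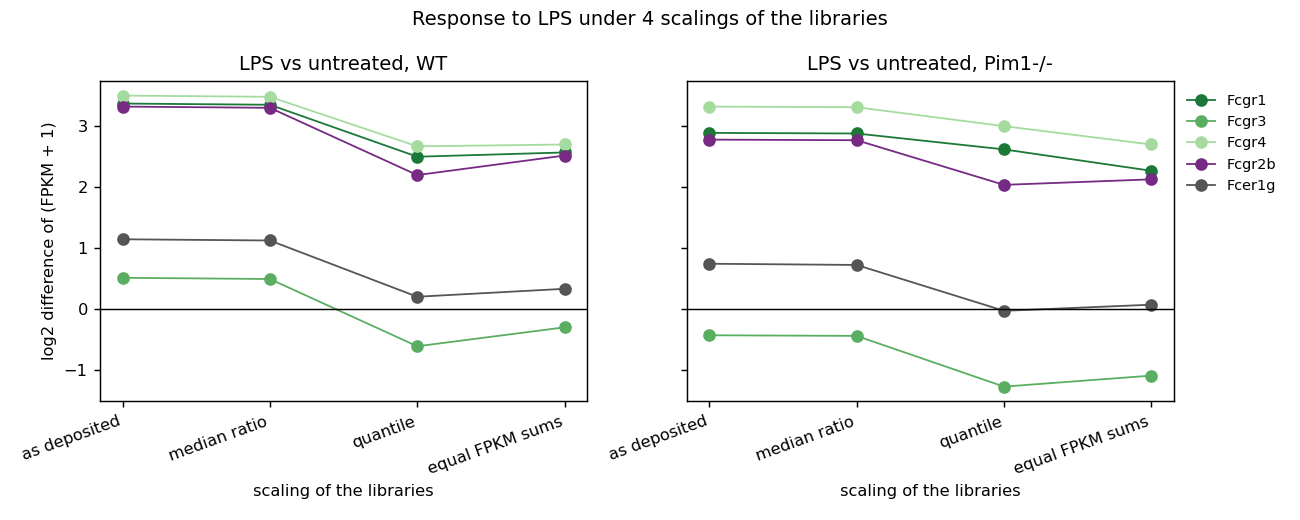
Log2 difference of (FPKM + 1) between LPS-treated and untreated cells under 4 scalings of the libraries, in WT (left) and Pim1-/- cells (right), with 1 line per gene. Fcgr1, Fcgr4 and Fcgr2b stay above 2.0 throughout, Fcgr3 crosses 0 in WT, and Fcer1g comes close to 0 under quantile normalization and equal FPKM sums.

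Scaling changed the size of the LPS responses more than the order of the genes. Across the 4 scalings the response of Fcgr2b was 2.19 to 3.31 in WT and 2.03 to 2.77 in Pim1-/- cells on the log2 scale, and Fcgr1, Fcgr4 and Fcgr2b were called in both genotypes under each of them.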

How the data were processed

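RNA-seq was done on WT and Pim1-/- BMDMs, untreated or treated with LPS, in 12 libraries. The authors prepared libraries with a stranded mRNA kit; the submitters' processing notes list bcl2fastq 2.20.0.422, cutadapt 1.18, TopHat2 2.0.13, Cuffdiff 2.2.1 and the build mm10, while the methods name rat rn5. Of the 23997 gene names, 99.5% matched mouse genes. The authors deposited 1 column of values per library, read as FPKM from the use of Cuffdiff and from the values, since the header names no unit. The sources used here give no library normalization, annotation or strand setting.

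Groups were taken from the labels. The 10581 genes reaching 1 FPKM in 3 or more libraries entered a limma fit (version 3.58.1, R 4.3.3) of log2(FPKM + 1) with 4 group means and a mean-variance trend. Calls needed more than 2-fold, p under 0.05 and FDR under 0.1, the thresholds of the methods, in both directions. A fold change on the log2(FPKM + 1) scale understates the change of low genes, and the folds in the text are ratios of mean FPKM. The fit was tested on simulated data. Depth was estimated because FPKM hold no counts: in genes with 1 transcript, 58.5% to 64.8% of values up to 0.3 FPKM were whole multiples of the step that 1 fragment gives, to within 0.05 of a step, where even spacing would give 10%. The step of each library and a shared length offset were fitted to these same values. The 10% holds for a step fixed beforehand, so it is too low a yardstick here. No count test was run.

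The members and all gene lists were chosen with earlier results of these data known. Named genes were the members, Pim1, Fcgrt and Trim21, genes from among the called genes of each list with the largest log2 differences (up to 3 in each direction), the 3 most similar to each member and any other-cell marker at 10 FPKM or more. Markers at or near 0, Spi1, Csf1r and Lyz2, Fcer1a and Ms4a2 were named after their values were seen. Ly6g was not analysed here, and the values of 1 listed kinase are not reported here. Alternatives were another pseudocount, filters, scalings, a replicate block, fits on fewer samples and each library left out. Sequences came from GENCODE M21 and RefSeq (GRCm38.p6). Python 3.11.15 with pandas 2.3.3, numpy 2.4.6 and matplotlib made the tables and plots.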

Additional observations from a re-analysis of the deposited data

Results flagged for a closer look

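The 5 genes were singled out for the same reason: their response to LPS differed between genotypes by the interaction test of the fit (limma FDR under 0.1), a rule that 68.5% of all genes met. The response in Pim1-/- cells minus that in WT cells was -0.94 on the log2 scale for Fcgr3, whose deposited LPS level lay above the untreated level in all 3 WT libraries and below it in all 3 Pim1-/- libraries. It was -0.54 for Fcgr2b, -0.48 for Fcgr1, -0.40 for Fcer1g and -0.18 for Fcgr4. None of the 5 passed 2-fold. The LPS difference of Fcgr3 in WT turned to -0.61 under quantile normalization and -0.30 with equal FPKM sums. Its difference in response kept its sign there, at -0.66 and -0.79. Under quantile normalization the values for Fcgr1 and Fcgr4 changed sign. Fcgr1 then no longer passed the FDR (limma FDR = 0.113), while Fcgr4 passed it in the turned direction (limma FDR = 0.000768). Fcgr4 did not pass it with a pseudocount of 0.1 (limma FDR = 0.254) or with equal FPKM sums (limma FDR = 0.985).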

How the results depend on the processing

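Over 520 values of the 5 genes under the alternatives, 511 kept their direction and their call, 2 lost the call, 2 gained it and 5 changed direction. Many of the 520 could not change direction. Leaving out a library from outside a comparison returns the same log2 difference. So do the filters, the replicate block, a fit without the mean-variance trend and a fit on only the groups compared. The 511 therefore overstates how far these values were tried. The exceptions all came from 2 scalings, quantile normalization and equal FPKM sums, the second of which was chosen after seeing the data. Fcgr3 with LPS in WT became -0.61 and -0.30 on the log2 scale, and with LPS in Pim1-/- cells it was called at -1.27 and -1.09. Fcer1g with LPS in WT lost its call at 0.20 and 0.33. Under quantile normalization Fcer1g with LPS in Pim1-/- cells became -0.03, and the difference in response became 0.12 for Fcgr1 and 0.33 for Fcgr4. The cause was not tested.

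Leaving out Fcgr3 turned the log2 ratio of activating to inhibitory receptors to -0.82 in untreated WT, -1.26 in untreated Pim1-/-, -0.68 in LPS-treated WT and -0.81 in LPS-treated Pim1-/- cells, and the genotype and LPS differences to -0.44, -0.13, 0.14 and 0.45, with 0.32 for their interaction; since Fcgr3 is most of the sum, this follows from its removal. Quantile normalization moved the ratio to 3.54 and 0.79 in untreated and LPS-treated Pim1-/- cells, its untreated genotype difference to 0.73, its LPS difference in Pim1-/- cells to -2.74 and the interaction to -0.58.

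Without the fold limit, calls over all genes were 8333, 8565, 9645, 9222 and 7245 at an FDR of 0.1 and 7904, 8194, 9453, 8954 and 6657 at 0.05 (genotypes untreated, genotypes after LPS, LPS in WT, LPS in Pim1-/-, interaction), against 823, 916, 3686, 2649 and 706. All 5 members then passed with LPS in Pim1-/- cells and in the interaction, where 3 and 0 were called with the limit. A pseudocount of 0.1 gave 1442 calls between genotypes after LPS and 1075 in the interaction. With equal FPKM sums, lower and higher calls were 3680 and 1190 in place of 1556 and 2130 (LPS in WT), 2783 and 967 in place of 1103 and 1546 (LPS in Pim1-/-), 331 and 494 in place of 545 and 371 (genotypes after LPS) and 389 and 328 in place of 469 and 237 (interaction), and the median of all genes between genotypes after LPS moved to 0.12. Quantile normalization gave 1807 and 1644 with LPS in WT.

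Leaving out each library in turn gave 791 to 861, 888 to 1005, 3664 to 3708, 2642 to 2669 and 692 to 723 calls over all genes and changed no call of a member. The labels number replicates in each group but do not say what a number marks, and same-numbered libraries correlated at -0.07 to 0.45 in their deviations from group means, over 0.1 for all 3 numbers in none of the 4 comparisons. With the replicate number as a block, calls were 824, 915, 3686, 2649 and 707, and no call of a member changed. FPKM without counts limits statements on depth to the estimate given.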
